A study of Mus musculus with 4 samples.

Results

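The RAB family comprises small GTPases, proteins that switch between a GTP-bound active and a GDP-bound inactive state and mark the membranes on which they sit. The members described here are the protein-coding genes whose symbol is Rab followed by a digit and at most 3 further letters or digits. This symbol rule found 62 of the 21883 protein-coding genes of the RefSeq annotation on chromosomes 1 to 19, X and Y. By name, 59 of them are RAB GTPases. The other 3 passed only by their symbols: Rab3ip and Rab3il1 encode exchange factors that load RAB proteins with GTP, and Rab5if encodes a RAB5-interacting factor.

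In a cell, an active RAB recruits effectors such as tethers, motors and kinases to its compartment. Exchange factors turn it on, GTPase-activating proteins turn it off, and GDP dissociation inhibitors and prenylation enzymes deliver it to membranes. In macrophages, RAB5 proteins act on early phagosomes and endosomes and RAB7 on late ones, while others direct recycling, cytokine secretion and the building of lysosome-related organelles.

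Chromatin carrying MED1, which belongs to the Mediator complex linking transcription factors to RNA polymerase II, was immunoprecipitated and sequenced (ChIP-seq). The material was the established mouse line RAW 264.7, of macrophage type, fixed with both DSG and formaldehyde. Of 4 libraries, 2 came from untreated cells and 2 from cells given bacterial lipopolysaccharide (LPS) for 2 h. The dose is 10 ng/mL in the sample labels and 100 ng/mL in the protocol. The data are 1 list of intervals on mm10, with no sample, height or significance for any interval, so resting and LPS-treated cells could not be compared, no replicate spread exists and no test was made.

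Deposited intervals that touch were joined, which gave 22570 regions with a median width of 1948 bp. Of these, 60.4% consisted of 3 touching intervals and 35.3% of a single one. Read depth is unknown, so a gene without a region is one without a deposited call, which is not evidence that MED1 was absent. The labelled cell type was checked on marker genes: all 10 macrophage markers had a region at an end, with widths of 2408 bp at Adgre1 to 18962 bp at Csf1r. Of the 4 neuronal and 3 hepatocyte markers, 0 had one. Regions were also found at 2 of 4 T cell markers (Cd3d and Cd4), 1 of 3 B cell markers (Cd79a) and 1 of 3 melanocyte markers (Pmel).

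Most RAB genes carried MED1 at a gene end. A region overlapped the 1 kb either side of an end in 45 of 62 members (72.6%), against 45.5% of all protein-coding genes. A region of several intervals did so in 39 members (62.9%), against 39.2% of all genes. The 6 members with only single-interval regions at their ends were Rab1b, Rab2b, Rab3d, Rab9, Rab12 and Rab23. Within 50 kb of an end, measured to region midpoints, 57 members (91.9%) had at least 1 region, against 70.3% of all genes. The members' median was 3.5 regions, with quartiles of 2 and 6, against a median of 2 over all genes. Counting only genes that had an end region, the medians were equal, with 4 for the 45 members and 4 for all 9967 such genes, while the genes lacking one had medians of 2 (17 members) and 0 (all genes). Within 10 kb, the medians over all 62 members and over all genes were also equal, with 1 each.

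Where the annotation lists start sites, the regions lay at the 5′ end. Among the 51 members with a listed start site, 38 (74.5%) had a region within 1 kb of one, against 46.3% of all genes. At the 3′ end this held for 5 members (9.80%), against 9.48% of all genes. The start site itself fell inside the region in 36 of the 38 and inside its widest interval in 33. For all genes these shares were 91.2% and 84.3%. Region midpoints lay a median of 82 bp into the gene, against 71 bp for all genes. The extremes were Rab19, whose region was centred 2112 bp upstream of the start site, and Rab3il1, whose region was centred 2777 bp downstream of one of its 5 listed start sites. The start sites of Rab2a, Rab4a, Rab7b, Rab18, Rab26, Rab27b, Rab30, Rab36, Rab37, Rab38 and Rab44 were not used here.

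Where a gene end was covered, regions at RAB genes were wider at middle widths and not at 5000 bp or more. The widest region at an end had a median width of 2598 bp over 45 members (quartiles 1992 and 4155 bp), against 2316 bp over the 9967 genes with one. When only regions of at least the median width were kept, the order turned, with 3043.5 bp for members and 3096 bp for all genes. A width of 2000 bp or more was reached by 32 of 45 members (71.1%), against 60.3% of such genes. At 3000 bp the shares were 40% against 32.8%, and at 4000 bp 26.7% against 19.9%. Only at 5000 bp was the order the other way, with 5 members (11.1%) against 14.2% of such genes. Rab1a (4986 bp), Rab32 (4975 bp) and Rab8a (4877 bp) lay just below that cut. The narrowest was 653 bp at Rab23.

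**Figure D1:**
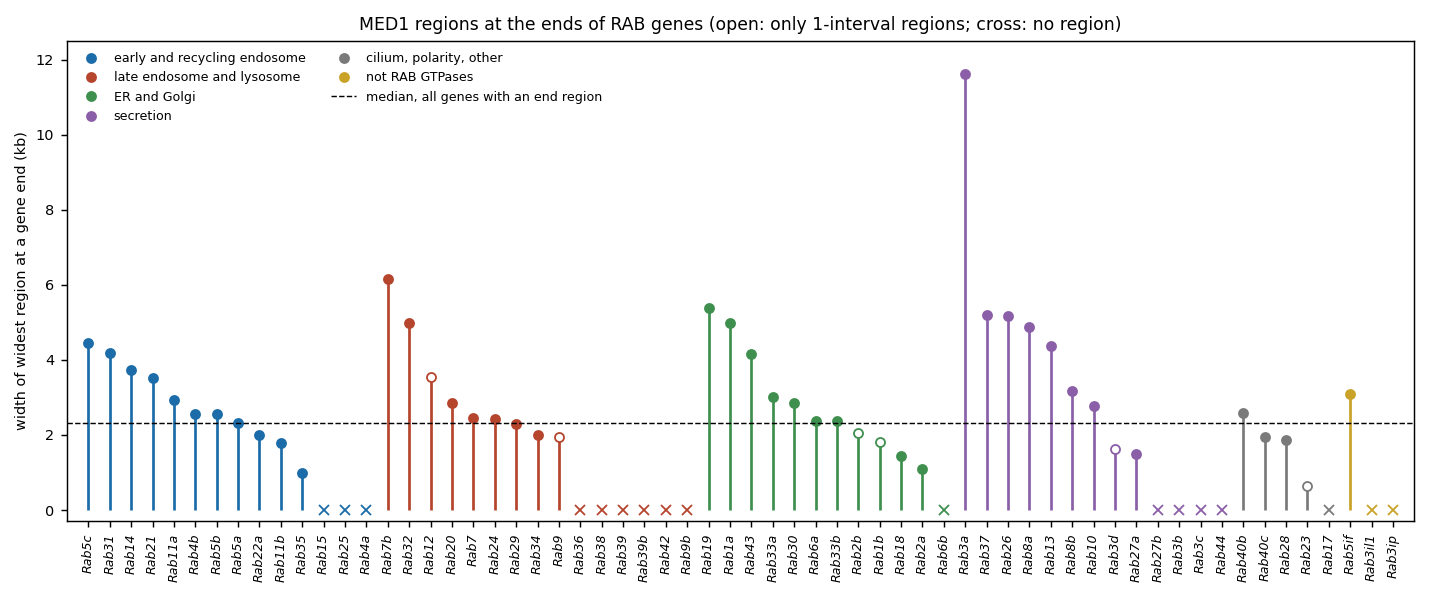
Width in kb of the widest MED1 region overlapping 1 kb around either end of each RAB gene, grouped by role. Open circles mark genes with only single-interval regions at their ends, crosses the 17 genes with no region there, and the dashed line the median of 2316 bp over all genes with such a region; Rab3a stands above the others at 11619 bp.

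**Figure D2:**
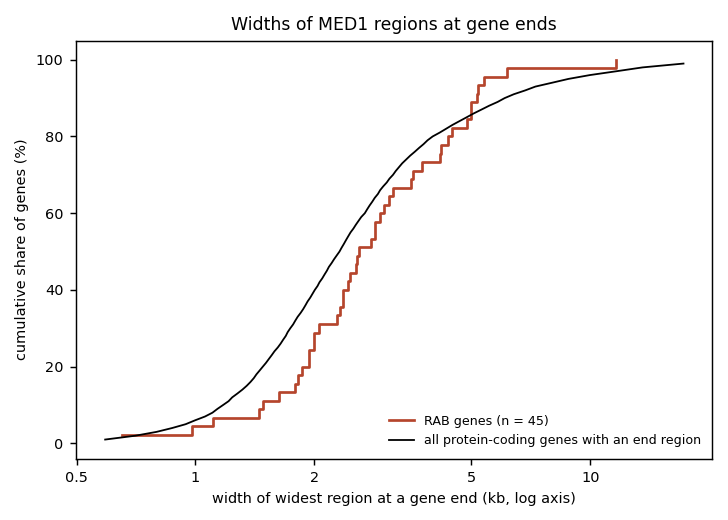
Cumulative share of genes (vertical axis, %) against the width of the widest region at a gene end (kb, log axis) for the 45 RAB genes with one and for all protein-coding genes with one. The RAB line lies to the right of the other at middle widths, with medians of 2598 and 2316 bp, and the lines cross between 4 and 5 kb.

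Genes of the early and recycling endosome carried regions in 11 of 14 cases (78.6%), with a median width of 2562 bp. The share was 72.6% over all members and 45.5% over all protein-coding genes, and differences between the groups were not tested. All of the RAB5 genes, whose products control fusion of early endosomes and phagosomes, had a region at an end. It measured 2321 bp at Rab5a, 2552 bp at Rab5b and 4459 bp at Rab5c (chr11:100734722-100739180). The Rab5b region (chr10:128695108-128697659) also reached the ends of the neighbouring genes Cdk2 and Pmel, the melanocyte marker noted above. Regions at Rab14, which acts between endosomes and the Golgi, and Rab21, which acts in integrin traffic, measured 3738 and 3507 bp. The one at Rab21 was made of 5 intervals, the most at any RAB gene end. Rab22a and Rab31, close relatives that act in endosomal sorting, had regions of 1992 and 4193 bp.

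The recycling genes differed among themselves. Rab11a and Rab11b, general regulators of the recycling endosome, had regions of 2936 and 1790 bp at their 5′ ends. Rab25, their epithelial relative, had none, and its closest region edge was 2.74 kb away. Nonetheless 9 regions lay within 50 kb of Rab25, of which 5 reached ends of other genes, among them Lmna, Lamtor2 and Arhgef2. Rab4b had a different region at each end, of 1727 bp at its 5′ end and 2562 bp at its 3′ end. These also reached Mia and Egln2, respectively. For Rab4a the closest edge was 16.2 kb away, and for Rab15, which has 4 listed start sites, it was 14.5 kb away. Rab35, a regulator of fast recycling, had the narrowest region of the group, with 981 bp.

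Late endosome, lysosome, phagosome and autophagy genes carried regions in 9 of 15 cases (60%, against the same 45.5% of all genes). The widest lay at Rab7b, a relative of Rab7 that acts between endosomes and the Golgi, with 6166 bp (chr1:131686900-131693065). It consisted of intervals of 1608, 4339 and 219 bp, and 90.3% of genes with an end region had a narrower one. No other protein-coding gene's end lay within 1 kb of it. Rab7 itself, which drives fusion of late endosomes and phagosomes with lysosomes, had 2459 bp at its 5′ end. Of the 8 regions within 50 kb of Rab7, 5 lay outside genes' ends and outside Rab7.

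Rab32, which builds lysosome-related organelles and acts in defence against intracellular bacteria, had a region of 4975 bp (chr10:10553612-10558586), centred 2108 bp inside the gene. It was the only region within 50 kb of Rab32. Rab20, which acts in phagosome maturation, had a region at each end, of 2412 bp at the 5′ end and 2857 bp at the 3′ end. A further region of 4775 bp in 5 intervals lay inside Rab20. Neither of its end regions reached another protein-coding gene's end. Rab12, a regulator of receptor degradation, had a single-interval region of 3557 bp, with 2 more regions inside the gene. Rab24, linked to autophagy, had 1785 bp at its 5′ end, which also reached Prelid1, and 2435 bp at its 3′ end, which also reached Nsd1. Rab29, a partner of the kinase LRRK2, had 2282 bp, Rab34 had 1992 bp and Rab9, which returns receptors from late endosomes to the Golgi, had 1944 bp. The 6 genes of this group without a region at an end were Rab9b, Rab36, Rab38, Rab39, Rab39b and Rab42. Of these, Rab42 lay among 8 regions within 50 kb, 7 of them at ends of other genes.

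Genes of the endoplasmic reticulum and Golgi carried regions in 11 of 12 cases (91.7%, against the same 45.5% of all genes), Rab6b being the exception. Rab19 had the widest, with 5380 bp (chr6:39376552-39381931), which also reached the end of Slc37a3. Rab1a and Rab1b, which control traffic from the endoplasmic reticulum to the Golgi, had 4986 and 1816 bp, and the Rab1b region also reached Klc2. Rab2a, an essential factor of the same early route, had 1106 bp, and Rab2b had 2054 bp, shared with the end of Tox4. Rab43 had 4155 bp, Rab30 had 2856 bp, Rab33b had 2359 bp and Rab18, which acts on lipid droplets, had 1450 bp. Rab6a had 2366 bp, which also reached the end of Mrpl48. At Rab33a the region of 3000 bp lay at the lower-coordinate end of the annotated gene, within 1 kb of an end of Aifm1, whereas its listed start site had no region within 1 kb.

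Genes of secretion and exocytosis carried regions in 9 of 13 cases (69.2%, against the same 45.5% of all genes), with the highest group median, 4371 bp. Rab3a, best known for control of synaptic vesicle release, had the widest region of all, with 11619 bp (chr8:70758600-70770218). That region began at the 3′ end of Rab3a and also reached the ends of Mpv17l2, Pik3r2 and Ifi30, which encodes a lysosomal thiol reductase of antigen processing. At its 5′ end Rab3a had a single-interval region of 3563 bp, also within 1 kb of an end of Pde4c. Rab37 had 5191 bp (chr11:115160012-115165202), which also reached Slc9a3r1, and Rab26 had 5162 bp, which also reached Traf7. Rab13 had 4371 bp, which also reached Rps27 and Nup210l. This width is the group median, and of the wider regions only that at Rab8a reached no other protein-coding gene's end. The high median thus rests largely on regions that position cannot assign to 1 gene.

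Other secretory genes had regions that reached no other protein-coding gene's end. Rab8a and Rab8b, regulators of transport from the Golgi to the cell surface, had 4877 and 3165 bp. Rab10, which acts in traffic of surface receptors including TLR4, had 2777 bp. Rab3d, a regulator of secretory granules, had 1627 bp, and Rab27a, which docks lysosome-related secretory organelles at the cell surface, had 1484 bp in 2 intervals. No region lay at an end of Rab3b, Rab3c, Rab27b or Rab44.

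The remaining groups were small. Rab23, a regulator of hedgehog signalling in cilia, had 653 bp, Rab28 had 1865 bp and Rab17 had none, with the closest edge 3.65 kb away. Rab40c, which recruits a ubiquitin ligase, had 2 regions at its 5′ end, of 1941 and 994 bp. The region of 2598 bp at Rab40b lay at its 3′ end next to Wdr45b, and its listed start site had none within 1 kb. Among the genes that are not GTPases, Rab5if had 3087 bp and the exchange factors Rab3ip and Rab3il1 had no region at their outer ends. A region of 6862 bp (chr19:10017598-10024459) covered an internal start site of Rab3il1.

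Some regions could belong to a neighbour. Of the 45 members with a region at an end, 13 (28.9%) had one that also reached within 1 kb of another protein-coding gene's end, against 38.8% of all such genes. The signal at these 13 cannot be assigned to 1 gene by position. A region was present at both ends in 4 members (6.45%: Rab3a, Rab4b, Rab20 and Rab24), against 7.17% of all genes. Lying whole inside a region was seen in 0 members, against 1.55% of all genes.

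Closely related genes did not always carry the same calls. Of 16 sets of close relatives, 9 had a region at an end of every member and 6 were mixed, and in the set of Rab39 and Rab39b neither gene had one. These counts stand beside the 72.6% of members with a region at an end. Whether relatives were more or less alike than that share alone would give was not tested. In the mixed sets, regions lay at Rab3a and Rab3d and not at Rab3b or Rab3c, at Rab4b and not Rab4a, at Rab6a and not Rab6b, at Rab9 and not Rab9b, at Rab27a and not Rab27b, and at Rab32 and not Rab38. Those at Rab3a, Rab4b and Rab6a also reached another gene's end. Some of the genes without a region were far from any. The closest region edge was 249 kb from Rab27b, 113 kb from Rab3c, 115 kb from Rab9b and 110 kb from Rab38. Rab36, with 116 kb, completes the 5 members with no midpoint within 50 kb. Others had regions in their vicinity: 16.2 kb from an end of Rab4a, 15.9 kb from Rab6b, 27.0 kb from Rab3b and 5.16 kb from Rab39. Of the 17 members without a region at an end, 5 were overlapped by a region inside the gene (Rab3b, Rab3il1, Rab3ip, Rab6b and Rab39) and 12 were not.

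Promoter sequences are shown for 2 of these mixed pairs and for 3 members whose windows hold uncommon motif matches. Each window runs from 250 bases before to 50 bases after a start site (RefSeq, GRCm38.p6, the assembly that mm10 names), 5′ to 3′ on the gene's strand. Capitals mark matches to the motifs listed in the next paragraph. The windows are Rab6a chr7:100607336-100607635 (plus strand), Rab6b chr9:103111824-103112123 (plus), Rab9 chrX:166479818-166480117 (minus), Rab9b chrX:136868507-136868806 (minus), Rab32 chr10:10558158-10558457 (minus), Rab19 chr6:39381103-39381402 (plus) and Rab5a chr17:53478984-53479283 (plus). All 300 bases lay inside a MED1 region at Rab6a, Rab9, Rab32, Rab19 and Rab5a, and 0 at Rab6b and Rab9b.
Rab6a: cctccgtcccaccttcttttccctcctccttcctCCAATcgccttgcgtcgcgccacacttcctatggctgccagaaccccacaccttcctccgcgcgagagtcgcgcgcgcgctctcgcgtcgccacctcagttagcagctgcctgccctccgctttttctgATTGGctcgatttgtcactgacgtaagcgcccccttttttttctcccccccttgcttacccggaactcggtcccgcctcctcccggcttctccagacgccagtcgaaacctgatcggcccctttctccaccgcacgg
Rab6b: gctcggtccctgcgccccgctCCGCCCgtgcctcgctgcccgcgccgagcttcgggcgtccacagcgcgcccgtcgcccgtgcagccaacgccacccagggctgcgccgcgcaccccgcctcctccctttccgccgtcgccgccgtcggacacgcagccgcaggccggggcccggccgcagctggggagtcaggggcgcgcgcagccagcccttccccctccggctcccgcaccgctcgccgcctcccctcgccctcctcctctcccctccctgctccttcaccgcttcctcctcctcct
Rab9: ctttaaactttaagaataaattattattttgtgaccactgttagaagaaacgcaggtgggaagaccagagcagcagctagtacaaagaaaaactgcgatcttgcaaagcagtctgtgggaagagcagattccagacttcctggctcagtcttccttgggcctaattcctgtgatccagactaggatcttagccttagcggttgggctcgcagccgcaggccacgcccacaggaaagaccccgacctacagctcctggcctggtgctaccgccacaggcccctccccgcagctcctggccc
Rab9b: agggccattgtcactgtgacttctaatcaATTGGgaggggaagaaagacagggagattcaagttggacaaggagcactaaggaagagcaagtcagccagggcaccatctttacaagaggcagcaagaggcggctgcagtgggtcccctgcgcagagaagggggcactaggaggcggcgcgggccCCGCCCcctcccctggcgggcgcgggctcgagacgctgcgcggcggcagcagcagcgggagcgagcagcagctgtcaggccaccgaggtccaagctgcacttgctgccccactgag
Rab32: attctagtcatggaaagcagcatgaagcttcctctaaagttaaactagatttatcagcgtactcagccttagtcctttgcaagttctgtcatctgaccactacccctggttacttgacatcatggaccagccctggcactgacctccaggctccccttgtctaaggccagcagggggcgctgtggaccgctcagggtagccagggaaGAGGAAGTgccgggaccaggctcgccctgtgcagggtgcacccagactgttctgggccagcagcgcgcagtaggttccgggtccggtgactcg
Rab19: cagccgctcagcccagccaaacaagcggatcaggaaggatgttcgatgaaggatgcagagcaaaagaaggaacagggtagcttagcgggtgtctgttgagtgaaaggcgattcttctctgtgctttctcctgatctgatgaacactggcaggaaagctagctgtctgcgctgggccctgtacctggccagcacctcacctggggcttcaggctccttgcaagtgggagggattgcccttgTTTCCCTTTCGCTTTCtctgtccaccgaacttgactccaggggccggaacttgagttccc
Rab5a: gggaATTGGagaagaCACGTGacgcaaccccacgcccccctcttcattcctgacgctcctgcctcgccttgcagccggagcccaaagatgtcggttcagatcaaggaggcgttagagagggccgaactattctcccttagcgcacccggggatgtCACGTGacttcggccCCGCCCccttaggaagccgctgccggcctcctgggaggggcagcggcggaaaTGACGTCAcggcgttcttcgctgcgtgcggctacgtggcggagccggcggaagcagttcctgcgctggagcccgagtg

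Motifs were searched on both strands in the 67 listed promoter windows of the 51 members and in 21262 windows of all protein-coding genes. The GC box GGGCGG was found in 46 member windows (68.7%), against 46.2% of all windows, and CCAAT in 27 (40.3%), against 38.2%. The GC box share depended on whether a MED1 region overlapped the window. Among overlapped windows 34 of 46 member windows held it, against 66.0% over all genes. Among the others 12 of 21 did, against 30.9%. The E-box CACGTG was found in 8 (11.9%), against 7.84%, and AP-1 (TGANTCA) in 3 (4.48%), against 6.99%. Windows rather than genes are counted, and those of 1 gene can overlap: the 8 include overlapping windows of Rab3il1, which is not a GTPase. The ETS motif CCGGAAGT was found in 2 windows (Rab11a and Rab24, 2.99%), against 5.15% of all windows. Over all genes it was in 10.3% of windows overlapped by a region and 1.18% of the others. Both member windows were overlapped. The PU.1 motif GAGGAAGT, which shares its last 6 bases with the ETS motif, was found in 2 (Rab32 and Rab2b), against 3.13%. The same number held the cyclic AMP response element TGACGTCA (Rab5a and Rab25), against 2.23%, and the NRF1 sequence GCATGCGC (Rab1a and Rab23), against 3.51%. The NF-kB consensus was found in 4 windows (5.97%), against 6.27%, and the interferon-stimulated response element in the window of Rab19 alone (1.49%), with 2 overlapping matches, against 3.35%. In the sequences above, Rab32 thus carries a PU.1 match, Rab5a a cyclic AMP response element between 2 E-boxes and its start site, and Rab9 no match. These matches describe letters only.

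Base composition moved with the presence of a region. A region overlapped 46 of the 67 member windows (68.7%), against 43.7% of all windows. The ratio of observed to expected CpG was 0.759 (median) in the 46 and 0.400 in the other 21. Over all genes the medians were 0.795 and 0.288. The GC content had medians of 63.3% and 56.7% in the members, against 61.3% and 51.3% over all genes. Its part in the calls was not tested. The pairs show that the groups overlap: Rab6b, without a region, had 78.7% G and C and a CpG ratio of 1.02, while Rab9, inside a region, had 53.3% and 0.425. Rab6a had the highest CpG ratio of all member windows, 1.18, and Rab9b had 0.557. The windows of Rab32 and Rab19, inside regions of 4975 and 5380 bp, had low ratios of 0.406 and 0.388.

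**Figure D3:**
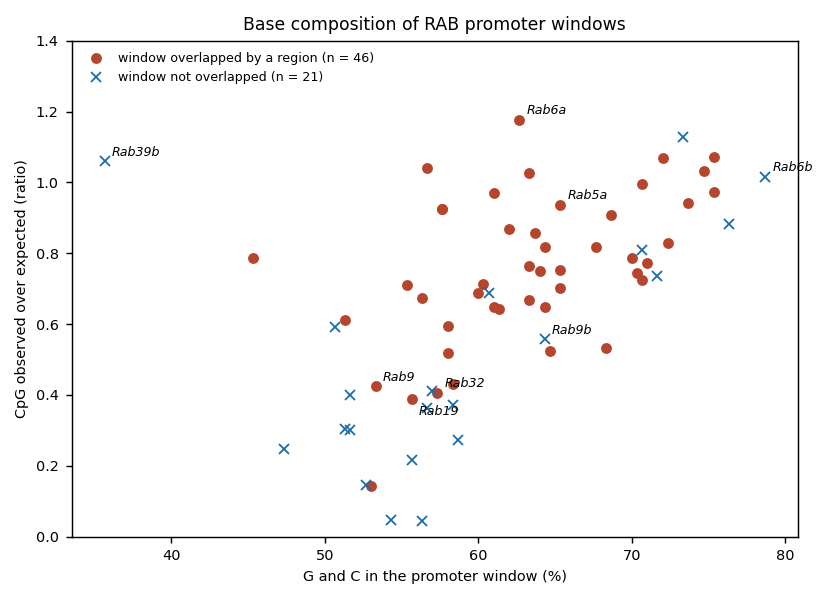
Ratio of observed to expected CpG (vertical axis) against G and C content (horizontal axis, %) in the 67 promoter windows of RAB genes. Circles are the 46 windows overlapped by a MED1 region and crosses the 21 others; circles tend to lie higher, with medians of 0.759 and 0.400, and the 2 kinds overlap.

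The number of regions near a RAB gene ranged from 0 to 13 within 50 kb. The highest counts were 13 at Rab31, 12 at Rab37, 10 at Rab40c and 9 at Rab25, followed by 8 each at Rab7, Rab8a and Rab42. In total 255 regions lay near the members, each near 1 member only. Of these, 19.6% were at an end of the RAB gene itself, 14.1% inside it, 34.9% at an end of another gene and 31.4% elsewhere. Counted the same way around all genes, with regions repeated between neighbours, the shares were 19.2%, 10.1%, 37.5% and 33.1%. High counts therefore had different make-ups. Around Rab40c, 6 of 10 regions were at ends of other genes, whereas around Rab31 1 of 13 was.

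**Figure D4:**
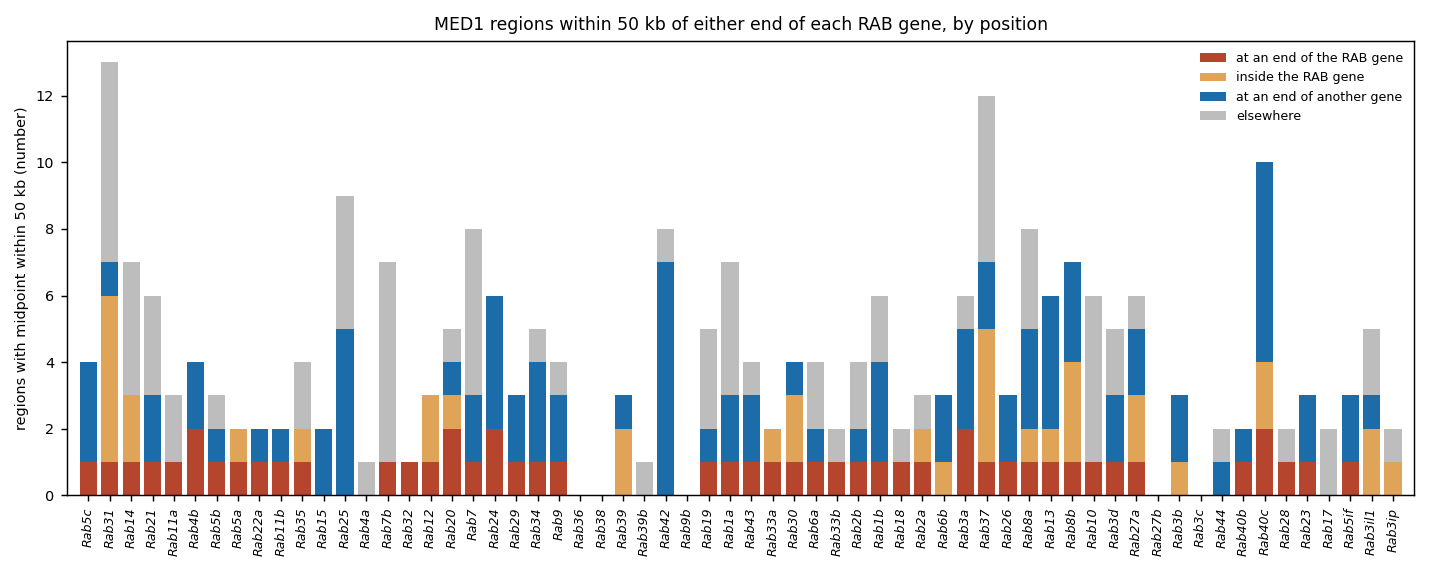
Number of MED1 regions with a midpoint within 50 kb of either end of each RAB gene (vertical axis), stacked by where they lie. Rab31 has the most, 13, of which 5 lie inside the gene, while the 9 near Rab25 and the 8 near Rab42 include none at their own ends.

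Regions inside RAB genes, away from their ends, numbered 36 in 20 of the 62 members. Their median width was 1747 bp, against 1948 bp over all regions, and 21 of them were single intervals, against 35.3% of all regions. The share of all genes with such a region was not computed, so the count of 20 is a description only. Rab31 held 5, including one of 8607 bp in 5 intervals (chr17:65723340-65731946) and one of 5981 bp (chr17:65736198-65742178). Rab37 held 4, of 2376 to 4342 bp, and the one of 2376 bp reached an end of Cd300lf, an inhibitory receptor gene of myeloid cells that lies within the span of Rab37. Rab8b held 3, including the widest inside any member, 14289 bp in 5 intervals (chr9:66876606-66890894). This was wider than the 3165 bp region at the gene's own 5′ end.

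**Figure D5:**
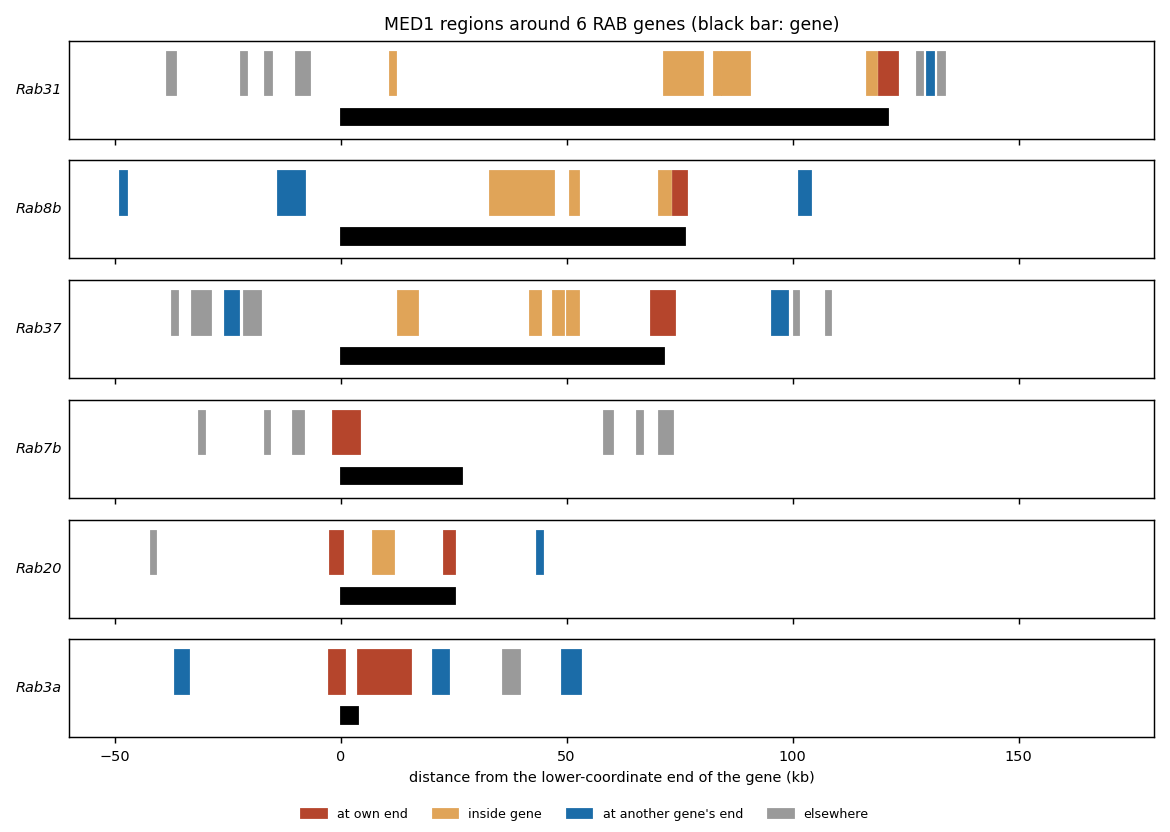
MED1 regions (coloured boxes) around 6 RAB genes (black bars), drawn to scale by distance in kb from the lower-coordinate end of each gene. The widest box inside a gene is that of Rab8b, 14289 bp, and the widest at an end is that of Rab3a, 11619 bp, which extends away from the gene.

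Wide groups of regions were formed by stitching regions up to just over 12 kb apart, the distance often used to define super-enhancers, into 13554 clusters and taking the largest 5% (677) by covered length. Such a cluster overlapped 4 members (6.45%), against 5.46% of all genes, a share near the background. The Rab3a cluster ranked 164th, covered 27.9 kb in 6 regions and also overlapped Mpv17l2, Ifi30, Pik3r2, Mast3 and Il12rb1. The Rab8a cluster (24.2 kb, 6 regions) also overlapped Tpm4. Those of Rab8b (16.4 kb, 2 regions) and Rab31 (16.2 kb, 3 regions) overlapped no other protein-coding gene. With clusters ranked by number of regions, Rab7 took the place of Rab8b.

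Most regions at RAB gene ends had the same internal make-up. Of the 50 regions at the ends of members, 39 consisted of 3 intervals, against 60.4% of all regions. In 36 of those 39 the middle interval was the widest, against 12586 of all 13627 such regions (92.4%), a share near the background. The middle interval held a median of 77.0% of the region's width, against 78.5% for all 3-interval regions. The exceptions were Rab3a, with intervals of 6425, 4597 and 597 bp, Rab14, with 1978, 1411 and 349 bp, and Rab5c, with 2833, 1574 and 52 bp. What distinguishes the touching intervals is not given in the sources used here.

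Genes that regulate RAB proteins were read in the same way. Exchange factor genes had a region at an end in 23 of 27 cases (85.2%), against 45.5% of all protein-coding genes, with the widest at Rin2, a RAB5 exchange factor, 5534 bp, and at Dennd4b, 5086 bp. The 4 without one were Dennd5b, Hps4, Rab3il1 and Rab3ip. Genes for GTPase-activating proteins did in 24 of 31 cases (77.4%, against the same 45.5%), led by Tbc1d13 with 4142 bp and Tbc1d17 with 3653 bp. Their median width was 1758 bp, below the 2316 bp of all genes, and 14 (45.2%) had a region of several intervals, against 39.2% of all genes. Genes of membrane delivery and prenylation did in 8 of 9 cases (88.9%, against the same 45.5%), led by Rabggtb, a subunit of the RAB geranylgeranyl transferase, with 5166 bp. Gdi2, a GDP dissociation inhibitor, had 2877 bp, and Chml had none.

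Effector genes had a region at an end in 27 of 43 cases (62.8%), against 45.5% of all genes. The widest lay at Rilpl2, 11223 bp, and Ehbp1l1, 9727 bp. Among effectors of RAB3 and RAB27 that act in secretion, none of the 5 synaptotagmin-like genes (Sytl1 to Sytl5) had a region at an end, and Rims1, Rims2, Rph3a, Mlph, Myrip and Unc13d had none either. This subset was picked out after the values were seen, so its lack of end regions is a description only, beside 45.5% of all genes with one. Within 50 kb, the number of regions ranged from 0 (Rims1, Rims2, Sytl4 and Sytl5) to 8 (Unc13d).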

How the data were processed

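The submitters' processing notes name mm10 as the build and list Bowtie, SAMtools and MACS2 (version 2.2.6). How peaks were called, and whether libraries were pooled or set against a control, is not stated there. The list that the authors deposited gives chromosome, start and end of 53764 intervals, and its deposited score is 0 in every line and was not used. No counts are given, so depth and precision per library are unknown. Touching intervals on chromosomes 1 to 19, X and Y (53760) were joined. Gene positions, start sites and promoter sequences came from RefSeq tables of GRCm38.p6, and start sites were listed for 51 of 62 members. Protein sequences were not used here. Coordinates are 1-based. Members and lists were chosen with earlier results of these data known. All members were named, with full values for those with the widest regions, most intervals, most regions within 50 kb, a region at each end, a large cluster, or the farthest closest region, and for 16 paralogue sets. Counts and medians were set beside those of all protein-coding genes, and no test was made. The counting was tested on simulated intervals at 600 genes, where 0 genes differed from a direct comparison. Python 3.11.15, numpy 2.4.6, pandas 2.3.3 and matplotlib 3.10.9 were used.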

Additional observations from a re-analysis of the deposited data

How the results depend on the processing

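The share of RAB genes with a region at an end stayed above that of all genes under all 10 alternatives, with counts of 32 to 45. Not all of these could have changed it. Unjoined intervals cover the same bases, and the rule leaving out members within 100 kb of an earlier one removed none. Leaving out single-interval regions repeats the count of several-interval regions. The lowest count, 32 of 62 (51.6%, against 30.3% of all genes), came when regions reaching another gene's end were left out, an alternative chosen after seeing the data, as was leaving out the 3 genes that are not GTPases. Counts of several-interval regions (27 to 40) and of large clusters (4 each) stayed within 1.5 times. The median number of regions within 50 kb was 8 for unjoined intervals (all genes 5), 3 with joining within 500 bp, 2 among regions of at least median width and without single-interval regions, 7 within 100 kb, and 4 around the gene body or without the 3 genes. Within 10 kb it was 1, equal to all genes. The median width at an end was 1978 bp for unjoined intervals, 2777 bp with joining within 500 bp, 2435.5 bp at listed start sites, 2359 bp by midpoint, 2856 bp without single-interval regions and 2580 bp without the 3 genes. Among regions of at least median width it was 3043.5 bp, below the 3096 bp of all genes, and the cause of this turn was not tested. No members lay within 100 kb of each other, and the alternative based on protein motifs was not run. No paired analysis was possible because no interval carries a library, and unknown depth limits every statement on a missing region.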

Other observations

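Another family of small GTPases gave a different count. Of the 32 genes with an Arf or Arl symbol, which include a few interacting proteins, 28 (87.5%) had a region at an end, and 27 had one of several intervals. The widest lay at Arl8b, which moves lysosomes along microtubules, with 14269 bp. The RAB genes had 72.6%, and their median width of 2598 bp stood beside 2408 bp for the Arf and Arl genes. The difference between the families was not tested.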
